A study of Homo sapiens with 12 samples.

Results

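The 9 genes described here belong to the machinery that shows peptides on HLA class I molecules. They are the heavy chain genes HLA-B, HLA-C and HLA-E, the light chain gene B2M, the peptide transporter genes TAP1 and TAP2, the tapasin gene TAPBP, the immunoproteasome subunit gene PSMB9 and the regulator gene NLRC5. They were chosen by name: the Ensembl identifiers of the deposited files were matched to gene symbols, and all 9 were found among the 19251 genes listed. RNA was measured by sequencing in 12 libraries from CAOV3 and TOV21G, 2 established human ovarian cancer cell lines, given in the labels as epithelial lines of high grade serous and of clear type and as wild type. Each line had 3 control libraries, labelled with no treatment, and 3 libraries from cells kept for 16 h with ovarian cancer ascites, fluid from the abdominal cavity of patients with this disease. The ascites was at 10% (150 µL into 1.5 mL of medium). All wells held medium with 10% fetal bovine serum. The labels name neither an addition to the control wells nor the source of the ascites. Each line stands for 1 tumour, and both were grown without the other cells of a tumour. Nothing in the labels says that the 3 libraries of a group came from separate cultures, so the p-values below measure the spread between these libraries, which may be technical.

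A nucleated cell cuts its proteins into peptides with the proteasome, and the immunoproteasome, in which PSMB8, PSMB9 and PSMB10 replace the constitutive catalytic subunits PSMB5, PSMB6 and PSMB7, is the form that interferon induces. The TAP1 and TAP2 proteins form a pump that carries peptides into the endoplasmic reticulum, where tapasin holds it next to empty class I molecules, each a heavy chain paired with B2M, until a peptide is bound. The loaded molecule travels to the surface, where HLA-B and HLA-C show it to cytotoxic T cells and natural killer cells, and HLA-E shows mainly the leader peptides of other class I chains to natural killer cells. NLRC5 is a transactivator that, with the RFX, CREB and NF-Y proteins, drives the promoters of most of these genes, and tumours with little of this machinery can be harder for T cells to see.

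The values are the authors' normalised read counts, that is, reads per gene divided by 1 factor per library. The libraries held 26697609 to 34491304 reads in the listed genes. All 9 genes were at 12.9 or more in every library and passed the filter for testing (a value of at least 10 in at least 3 libraries), as did 17616 genes in all. Differences are given as log2(value + 1) with their standard error (SE) from limma, a linear model that shares information on spread across genes. The threshold for a call was an adjusted p under 0.05 (Benjamini-Hochberg over the 17616 genes), and levels are mean ± SD over n = 3 libraries. Values of 6 of 6 epithelial marker genes were listed in both lines, although CDH1 was at 6.3 to 17.3 in TOV21G and 266 to 455 in CAOV3. Of 10 leukocyte marker genes 3 were listed (CD14, LYZ and ITGAM). Their summed values were 122.6 to 143.5 in CAOV3 controls and 104 to 135 in CAOV3 with ascites, against 41.9 to 64.0 and 61.9 to 65.4 in TOV21G, and LYZ was at 0 in all TOV21G libraries, while ITGAM was at 2.0 to 10.2 in CAOV3 and 33.5 to 53.7 in TOV21G. The listed mesothelial markers (5 of 6) summed to 119 to 159 in CAOV3 controls and 611 to 682 in TOV21G controls. The listed fibroblast markers (6 of 7) summed to 5560 to 6419 and 12549 to 13084. The members went both ways. Of 4 mesothelial markers tested limma called 2 higher and 2 lower in TOV21G controls, and of 6 fibroblast markers 2 higher and 4 lower. Over all genes tested 40.8% were called higher and 41.4% lower. MSLN was at 7.5 to 18.8 in CAOV3 controls and 481 to 552 in TOV21G controls. CALB2 was at 39.7 to 48.5 and 0 to 1.1, COL1A2 at 2.2 to 3.0 and 10509 to 11100, and LUM at 3898 to 4604 and 0. The part of these markers in the differences between the lines was not tested. Both lines were grown without the other cells of a tumour. In bulk RNA, fewer cells that express a gene and less RNA per cell cannot be told apart.

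Of the 9 genes, 7 lie in the extended major histocompatibility complex on chromosome 6, B2M on chromosome 15 and NLRC5 on chromosome 16. In GENCODE release 29 on GRCh38, HLA-E (ENSG00000204592) lies at chr6:30489467-30494205 on the plus strand, HLA-C (ENSG00000204525) at chr6:31268749-31272130 and HLA-B (ENSG00000234745) at chr6:31269491-31357188, both on the minus strand. TAP2 (ENSG00000204267, chr6:32821833-32838780, minus), TAP1 (ENSG00000168394, chr6:32845209-32853978, minus), PSMB9 (ENSG00000240065, chr6:32844136-32859585, plus) and TAPBP (ENSG00000231925, chr6:33299694-33314387, minus) follow. B2M (ENSG00000166710) lies at chr15:44711487-44718877 and NLRC5 (ENSG00000140853) at chr16:56989485-57083531, both on the plus strand. The build used for counting is not given in the sources used here, nor is strandedness, so counts of overlapping genes are uncertain. TAP2 shares 32.3% of its exon bases with AL669918.1, HLA-B 18.9% with its neighbours and TAP1 9.5% with PSMB8-AS1 and PSMB9, while HLA-E, B2M, TAPBP and NLRC5 share none. Of all 50-base stretches in the gene's transcripts, 17.8% of those of HLA-B also occur in other genes, 15.1% in AL671883.2 and 2.5% in HLA-C. The share was 31.3% in TAP2, 9.78% in TAP1 and 3.05% to 5.7% in HLA-C, HLA-E, TAPBP and PSMB9. None of those of B2M or NLRC5 occur in another gene. These are reference sequences.

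Promoter sequence was taken from RefSeq (GRCh38.p14), whose table held 7 of the 9 genes, and did not hold HLA-E and NLRC5. The 250 bases before the start are shown, 5′ to 3′ on the gene's own strand, for 5 genes whose values the results turn on: the transporter genes TAP2 and TAP1, of which TAP2 was called in CAOV3 after ascites, HLA-B and HLA-C, whose promoters are alike while their levels in CAOV3 are not, and B2M, which was lower in the line where HLA-B was higher. Capitals mark matches, on either strand, to 4 motifs: GAAA followed by any 2 bases and GAAA (the core of the interferon-stimulated response element), GGG, any 2 bases, TT, any base and CC (an NF-kB-like site), CCAAT (the NF-Y box), and TGACG (the core of the cAMP response element). Matches may overlap, as they do in TAP1 and B2M. They are positions of letters and no evidence of binding.
TAP2, chr6:32838740-32838989, minus strand: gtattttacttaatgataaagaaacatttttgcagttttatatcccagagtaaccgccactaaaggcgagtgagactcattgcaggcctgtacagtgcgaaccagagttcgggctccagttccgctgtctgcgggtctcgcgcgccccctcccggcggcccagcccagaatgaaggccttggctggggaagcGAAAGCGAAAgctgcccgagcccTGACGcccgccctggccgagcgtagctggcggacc
TAP1, chr6:32853705-32853954, minus strand: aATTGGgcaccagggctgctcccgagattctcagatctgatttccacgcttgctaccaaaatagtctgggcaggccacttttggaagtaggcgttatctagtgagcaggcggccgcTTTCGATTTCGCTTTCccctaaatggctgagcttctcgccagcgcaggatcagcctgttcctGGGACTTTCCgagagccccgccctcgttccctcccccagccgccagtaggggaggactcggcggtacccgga
HLA-B, chr6:31357180-31357429, minus strand: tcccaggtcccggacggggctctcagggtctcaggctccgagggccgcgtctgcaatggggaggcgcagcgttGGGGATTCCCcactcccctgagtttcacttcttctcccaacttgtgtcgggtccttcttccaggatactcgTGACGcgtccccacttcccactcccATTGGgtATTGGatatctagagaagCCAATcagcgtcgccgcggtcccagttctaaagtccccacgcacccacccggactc
HLA-C, chr6:31272093-31272342, minus strand: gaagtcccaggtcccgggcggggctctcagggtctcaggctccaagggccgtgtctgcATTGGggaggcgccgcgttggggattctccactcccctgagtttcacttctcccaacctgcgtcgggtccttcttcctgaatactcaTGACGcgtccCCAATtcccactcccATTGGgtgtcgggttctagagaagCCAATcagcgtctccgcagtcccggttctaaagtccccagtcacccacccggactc
B2M, chr15:44711267-44711516, plus strand: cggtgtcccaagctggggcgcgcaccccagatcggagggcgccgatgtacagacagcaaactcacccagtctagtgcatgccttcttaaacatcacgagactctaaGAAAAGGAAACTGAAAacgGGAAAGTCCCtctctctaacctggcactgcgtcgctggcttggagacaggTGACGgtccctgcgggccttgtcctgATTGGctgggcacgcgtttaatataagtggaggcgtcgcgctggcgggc

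The interferon-stimulated core was present 58 bases before the TAP2 start, as overlapping matches 134 and 128 bases before the TAP1 start and 144 and 138 bases before the B2M start, and also 20 and 14 bases before the TAPBP start. The table holds a further start for TAP1 (window chr6:32852762-32853011, minus strand), in whose window none of the 4 motifs was found, and the TAP1 positions given here are those of the start shown above. Among all 35116 windows of this length, 3.02% held it. The NF-kB-like site, held by 5.07% of windows, was found in TAP1 (72 bases before the start), HLA-B (177), B2M (125) and TAPBP (56). HLA-C had no match to it in this window, although its promoter aligned with that of HLA-B at 226 of 254 columns (89%). CCAAT was present 3 times in HLA-B and 4 times in HLA-C (32% of windows held it), and TGACG lay 106 and 105 bases before their starts (21.2% of windows). PSMB9 had neither of the longer motifs, and its start lies 488 bases from that of TAP1, on the other strand.

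In CAOV3, NLRC5 and TAP2 were higher with ascites. In TOV21G no gene of the 9 was called by limma, edgeR or DESeq2, and none had an unadjusted limma p under 0.05. Such a p was found in TOV21G for 1615 of all 17616 genes tested. Of the 9 genes, 2 were called higher in CAOV3 and none lower, where 1.73% of all genes tested were called (0.636% higher and 1.1% lower). All 9 estimates were above 0 in CAOV3, with a median of 0.17 on the log2 scale against -0.002 over all genes tested. In 7 of the 9 genes the 3 ascites libraries all lay above the 3 controls, as in 11.4% of all genes, and in none did they all lie below, as in 12.8% of all genes. HLA-B and PSMB9 overlapped. In TOV21G, 3 of the 9 estimates were above 0 with a median of -0.009 (-0.018 over all genes), and 0.409% of all genes were called (0.142% higher and 0.267% lower). The CAOV3 estimates and the TOV21G estimates come from different control libraries.

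**Figure D1:**
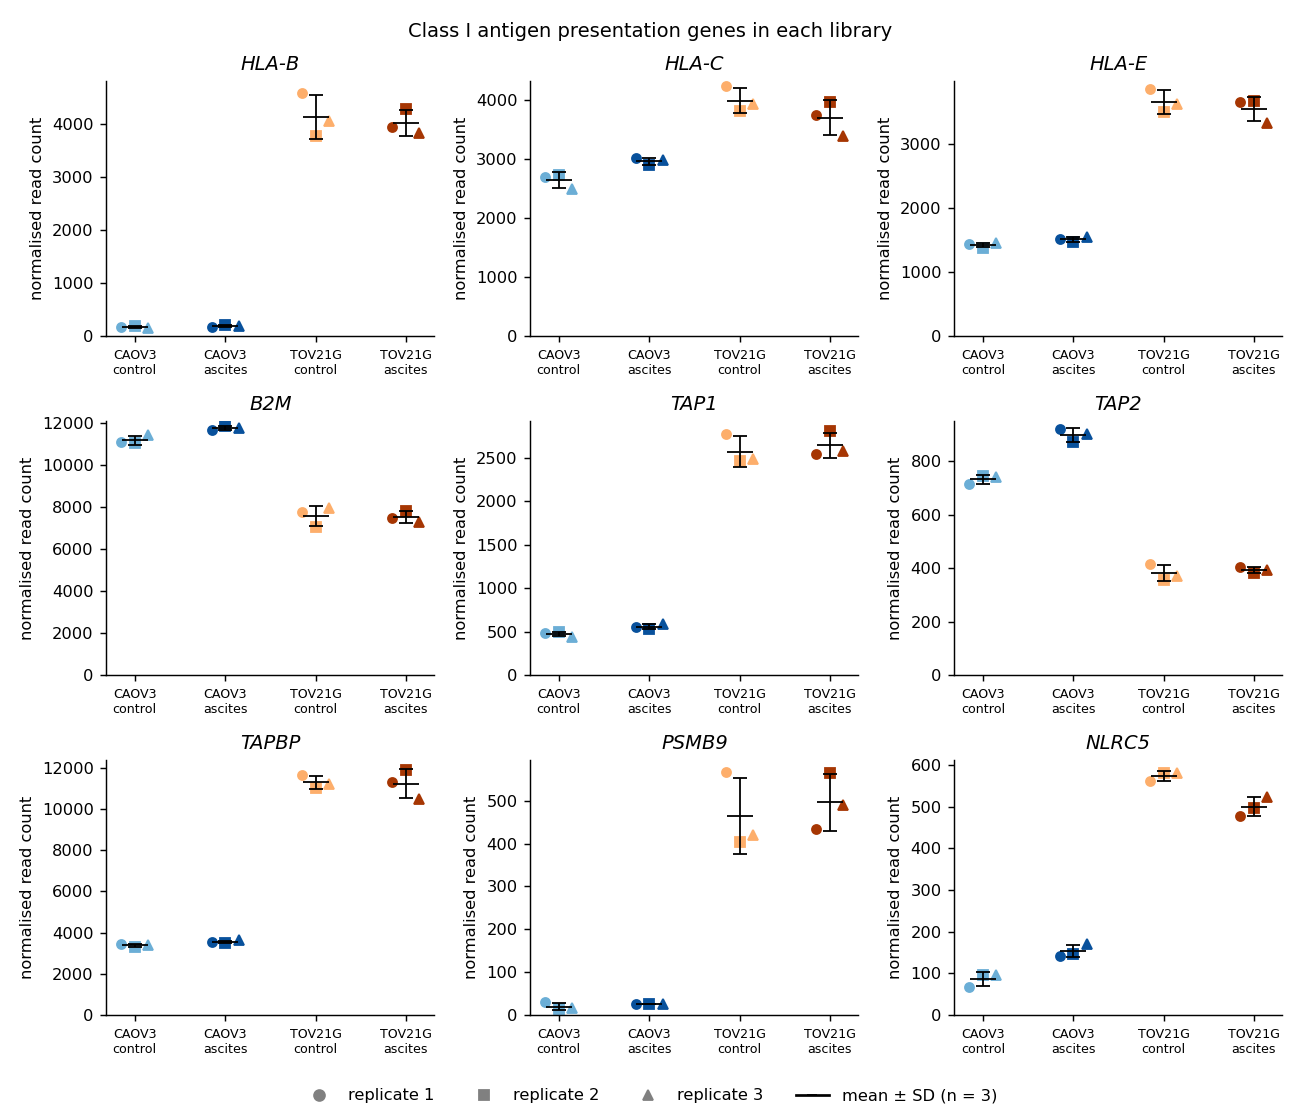
Normalised read count of each of the 9 genes (y axis, linear, starting at 0) in each of the 12 libraries, by group (x axis); symbols mark the replicate number, and bars give the mean ± SD of 3 libraries. NLRC5 in CAOV3 moves from 68.1 to 96.0 in the controls to 142 to 170 with ascites, and the CAOV3 and TOV21G points do not overlap in any panel.

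NLRC5, the transactivator of class I genes, changed most. Its normalised read count was 68.1, 95.7 and 96.0 in the 3 CAOV3 controls and 142, 147 and 170 in the 3 CAOV3 ascites libraries. All ascites libraries lay above all controls, and control replicate 1 was the lowest of the 6. The rise was 0.83 on the log2 scale (SE 0.12, 95% interval 0.57 to 1.09, limma adjusted p = 0.0029), or 1.78-fold. The call held in all 12 fits that left out 1 library, with the largest limma adjusted p (0.0188) without ascites replicate 3 and a rise of 0.67 without control replicate 1. With the CAOV3 libraries fitted alone, so that the TOV21G libraries no longer informed the spread, the limma adjusted p was 0.0814. In these libraries NLRC5 rests on 60 to 97 reads in the controls and 130 to 166 with ascites.

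In TOV21G, NLRC5 stood higher to begin with and was the only gene of the 9 whose groups did not overlap, in the other direction. Its values were 560, 581 and 581 in the controls and 478, 497 and 523 with ascites. Each ascites library lay below each control, as in 6.99% of all genes tested in this line (4.16% lay above), and the difference of -0.20 (SE 0.12, 95% interval -0.46 to 0.06) was not called (limma adjusted p = 0.633). The responses of the lines differed by -1.03 (TOV21G minus CAOV3, SE 0.17, 95% interval -1.40 to -0.66), with a limma adjusted p of 0.0177 for the interaction. That was the only call among the 9 genes in this comparison, where 0.545% of all genes tested were called (0.307% lower and 0.238% higher). It was lost when CAOV3 ascites replicate 3 (limma adjusted p = 0.0601), TOV21G control replicate 3 (0.064) or TOV21G ascites replicate 1 (0.0675) was left out. With edgeR on the recovered reads it was 0.00322.

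Of the transporter genes, TAP2 was the other gene called in CAOV3. TAP2, the subunit that pairs with TAP1, was at 713, 744 and 739 in CAOV3 controls and at 920.0, 870.1 and 900.3 with ascites. The groups did not overlap, and the lowest ascites library stood above the highest control. The rise of 0.29 (SE 0.06, 95% interval 0.16 to 0.42, 1.23-fold) was called with a limma adjusted p of 0.0271. The estimate stayed between 0.27 and 0.31 when any 1 of the CAOV3 libraries was left out, but the call was lost each time, with limma adjusted p of 0.103, 0.0631 and 0.0761 without control replicates 1, 2 and 3 and of 0.113, 0.062 and 0.0932 without ascites replicates 1, 2 and 3. The reads of TAP2 and AL669918.1 cannot be told apart over the exon bases they share. In TOV21G, TAP2 was at 415, 358 and 371 in controls and 403, 382 and 394 with ascites, with overlapping groups and a difference of 0.05 (SE 0.06, limma adjusted p = 0.827).

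TAP1, the other subunit of the pump, was at 488, 494 and 443 in CAOV3 controls and at 557, 532 and 593 with ascites. Here too no ascites library fell within the controls. The difference of 0.24 (SE 0.06, 95% interval 0.10 to 0.38) was not called, with a limma adjusted p of 0.0975 (unadjusted 0.00258) and adjusted p of 0.0571 with edgeR and 0.0654 with DESeq2. In TOV21G, TAP1 was at 2771, 2457 and 2483 in controls and at 2540.2, 2807 and 2581 with ascites, and the groups overlapped. The share of TAP1 in the summed counts per kilobase of TAP1 and TAP2 was 46.3% ± 1.7 in CAOV3 controls and 45.4% ± 1.2 with ascites, against 89.97% ± 0.14 and 89.9% ± 0.71 in TOV21G. The divisor is the union of all annotated exons, 4805 bases in TAP1 and 6390 in TAP2, and the share depends on these lengths. Tapasin (TAPBP), which bridges the pump and the empty class I molecule, was at 3444, 3321 and 3393 in CAOV3 controls and 3526, 3514 and 3623 with ascites, again without overlap, with a difference of 0.07 (SE 0.05) that was not called.

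**Figure D2:**
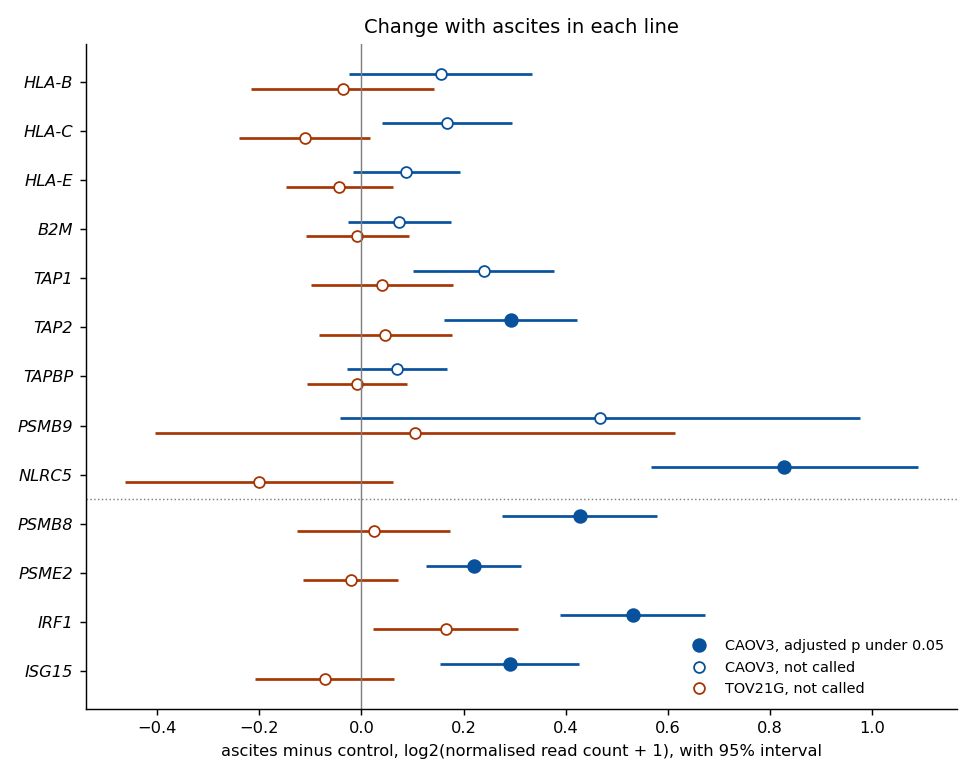
Ascites minus control on the log2(value + 1) scale (x axis) with its 95% interval, for the 9 genes (above the dotted line) and 4 genes of the same pathway that were called in CAOV3 (below it). Filled points mark adjusted p under 0.05: NLRC5 (0.83) and TAP2 (0.29) among the 9, PSMB8, PSME2, IRF1 and ISG15 below; none of the TOV21G points is filled.

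None of the heavy chains was called in CAOV3, nor was B2M. HLA-C was at 2697, 2726 and 2486 in controls and at 3006, 2895 and 2974 with ascites, a difference of 0.17 (SE 0.06) without overlap between groups and not called (limma adjusted p = 0.222). HLA-E was at 1435, 1379 and 1445 in controls and at 1509, 1469 and 1548 with ascites. B2M, the light chain shared by all class I molecules, was at 11071, 11013 and 11397 in controls and at 11648, 11857 and 11733 with ascites. In both genes the groups stood apart by a small gap, and the differences of 0.09 (SE 0.05, 95% interval -0.02 to 0.19) and 0.07 (SE 0.05, 95% interval -0.03 to 0.18) were not called. HLA-B was at 169, 182 and 154 in controls and at 174, 201 and 187 with ascites, and these groups overlapped (0.16, SE 0.08, limma adjusted p = 0.47).

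In TOV21G the heavy chain, B2M and TAPBP values of the groups overlapped. HLA-B was at 4598, 3772 and 4065 in TOV21G controls and at 3959, 4299 and 3834 with ascites. HLA-C was at 4227, 3807 and 3919 in controls and at 3735, 3964 and 3382 with ascites, a difference of -0.11 (SE 0.06, 95% interval -0.24 to 0.02). For neither was the difference called. HLA-E was at 3854, 3489 and 3619 in controls and at 3651, 3661 and 3328 with ascites, B2M at 7752, 7024 and 7926 and at 7473, 7805 and 7284, and TAPBP at 11653, 11005 and 11207 and at 11310.4, 11898 and 10491. In each of these the estimate lay within 0.05 of 0, and for B2M and TAPBP its sign turned with TMM scaling (0.017 and 0.016, from -0.008 and -0.009). The difference between the lines' responses was below 0 for all 9 genes, with a median of -0.20 (-0.014 over all genes), and was not called for HLA-C (-0.28, SE 0.08, limma adjusted p = 0.238), TAP2 (-0.25, adjusted p = 0.305) or TAP1 (-0.20, adjusted p = 0.416).

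PSMB9, the immunoproteasome subunit beside TAP1, was near the lower end of detection in CAOV3. It was at 29.5, 12.9 and 16.8 in controls and at 26.3, 25.6 and 26.6 with ascites, from 12 to 26 reads a library in both groups. Control replicate 1 was the highest of the 6, so the groups overlapped, and the estimate of 0.47 had a wide interval (SE 0.23, 95% interval -0.04 to 0.98, limma adjusted p = 0.436). In TOV21G it was at 567, 405 and 421 in controls and at 433, 565 and 490.4 with ascites, and these groups overlapped too (0.11, SE 0.23). PSMB9 made up 0.20% ± 0.085 of the summed counts per kilobase of PSMB9 and its constitutive counterpart PSMB6 in CAOV3 controls, 0.26% ± 0.011 with ascites, 5.34% ± 0.49 in TOV21G controls and 6.02% ± 0.58 with ascites. The divisors were 3072 exon bases for PSMB9 and 1448 for PSMB6, and the size of the share depends on them. The same holds for PSMB8 (2997 bases) and its counterpart PSMB5 (1765) below.

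The other immunoproteasome subunit encoded at this locus, PSMB8, was called in CAOV3. It was at 254, 257 and 263 in controls and at 372, 325 and 347 with ascites, with no overlap. The rise was 0.43 (SE 0.07, limma adjusted p = 0.00601), and it was called in all 12 fits that left out 1 library. In TOV21G, PSMB8 was at 1262, 1127 and 1177 in controls and 1173, 1320 and 1136 with ascites. These groups overlapped and PSMB8 was not called (limma adjusted p = 0.953), nor was its interaction (limma adjusted p = 0.119). The share of PSMB8 in the counts per kilobase of PSMB8 and PSMB5 was 2.48% ± 0.15 in CAOV3 controls and 3.16% ± 0.29 with ascites, and 11.4% ± 0.29 and 12.5% ± 0.25 in TOV21G, without overlap in either line. PSMB5, in the denominator, was at 5949, 5012 and 5382 in TOV21G controls and 4880, 5299 and 4757 with ascites, with overlap. An exact permutation test of 3 libraries against 3 cannot give a p under 0.1, so these shares were not tested. PSMB10 made up 2.88% ± 0.56 of PSMB10 and PSMB7 in CAOV3 controls and 3.87% ± 0.28 with ascites, 2.80% ± 0.39 and 3.32% ± 0.42 in TOV21G. Its shares did not overlap in CAOV3 and overlapped in TOV21G. PSMB10 itself was at 162, 153 and 104 in CAOV3 controls and 191, 195 and 216 with ascites. That difference of 0.55 was the largest of the proteasome genes in CAOV3 and was not called.

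**Figure D3:**
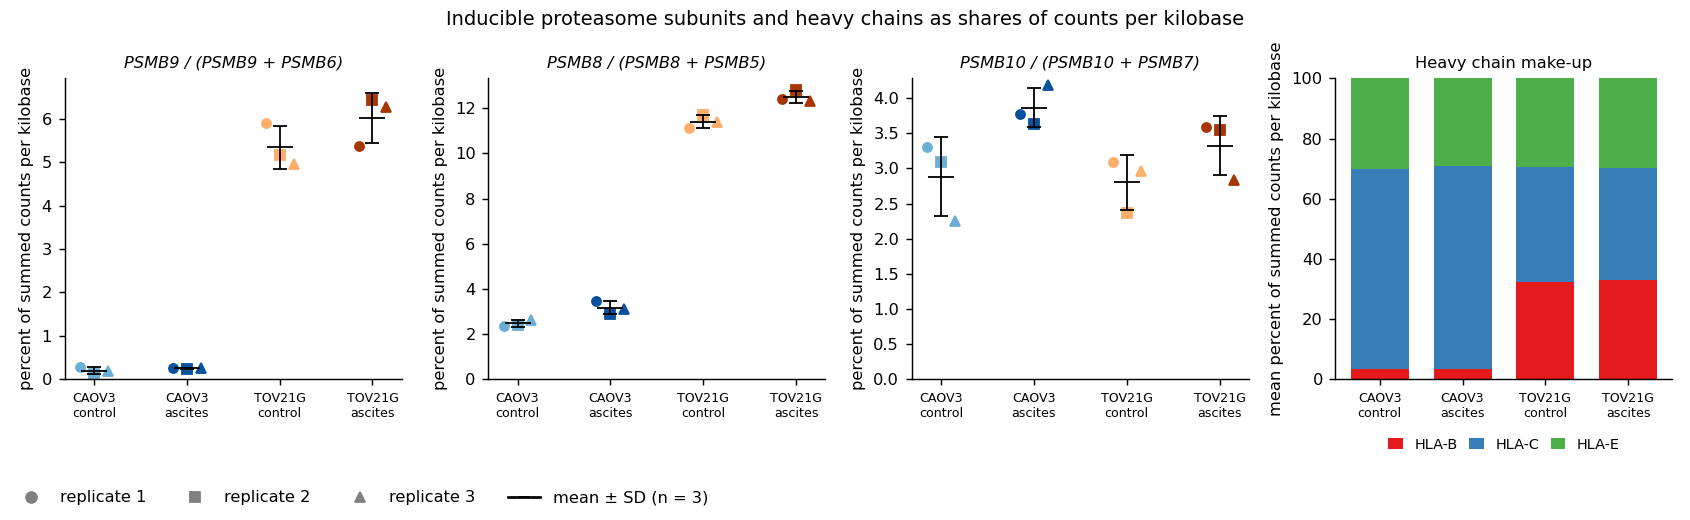
The 3 inducible proteasome subunits as a percent of the summed counts per kilobase of each with its constitutive counterpart, in each library (y axes from 0; bars are mean ± SD, n = 3), and the mean make-up of the summed HLA-B, HLA-C and HLA-E counts per kilobase in each group. PSMB9 and PSMB8 shares are higher in all TOV21G libraries than in any CAOV3 library, PSMB10 shares overlap, and HLA-B makes up 3.48% of these heavy chains in CAOV3 controls against 32.5% in TOV21G controls. The size of each share depends on the exon lengths used as divisors.

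Beyond the 9 genes, 87 genes of the pathway were followed in 8 lists (other heavy chains, class I-like proteins, peptide loading and trimming, proteasome and its activator, transcription factors, interferon receptors and signalling, class I turnover at the surface, and interferon-stimulated outputs), of which 79 were tested. In CAOV3, 4 were called higher and none lower, with 47 estimates above 0 and a median of 0.04, where 0.636% of all 17616 genes tested were called higher, 1.1% lower and 8406 had estimates above 0 (median -0.002). With each line fitted alone, limma called 5 of the 79 higher and 1 lower. In the proteasome list all 9 estimates were above 0 with a median of 0.13, and PSMB8 and PSME2 were called. PSME2, a subunit of the proteasome activator PA28, was at 2737, 2856 and 2696 in controls and 3272, 3243 and 3139 with ascites (0.22, SE 0.04, limma adjusted p = 0.0208). Leaving out CAOV3 control replicate 1 or 3 or ascites replicate 1 or 2 took its limma adjusted p to 0.0803, 0.0868, 0.0905 and 0.0883. The transcription factor list and the list of interferon-stimulated outputs had 1 call each of 15 genes tested. IRF1, a transcription factor that binds interferon-stimulated elements in class I promoters, was at 499, 549 and 573 in controls and 802, 759 and 780 with ascites. Its rise of 0.53 (SE 0.07, limma adjusted p = 0.000859) was called in all 12 fits that left out 1 library. ISG15, a ubiquitin-like protein made in response to interferon, was at 483, 479 and 432 in controls and 537, 581 and 587 with ascites (0.29, SE 0.06, limma adjusted p = 0.0351). That call was lost in 6 of the 12 fits, without CAOV3 control replicate 1, 2 or 3 (0.0596, 0.0629 and 0.13), CAOV3 ascites replicate 2 or 3 (0.132 and 0.135) or TOV21G control replicate 3 (0.0619).

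The other 5 lists had no call in CAOV3: the heavy chains HLA-F and HLA-G, the 12 class I-like genes tested, the 9 of peptide loading and trimming, the 11 of interferon receptors and signalling and the 6 of surface turnover. In TOV21G none of the 79 genes was called by limma, edgeR or DESeq2, and 27 of the 79 estimates were above 0 (median -0.021). An unadjusted limma p under 0.05 was found for 5 of the 79, against 1615 of all 17616 genes tested. None of the 79 interactions was called by limma or edgeR, while DESeq2 called 2, against 210 over all genes. An unadjusted limma interaction p under 0.05 was found for 12 of the 79, against 2091 of all 17616 genes tested. The interaction of IRF1 was not called (-0.37, SE 0.09, limma adjusted p = 0.14). Among the marker genes of cell types, KRT8 and KRT18, keratins of simple epithelia, rose in CAOV3 by 0.29 (SE 0.06, limma adjusted p = 0.0231) and 0.33 (SE 0.06, adjusted p = 0.0102), and the KRT8 responses differed between the lines (-0.41, limma adjusted p = 0.0483). The other 4 of the 6 epithelial markers were not called, and not all estimates were above 0: CDH1, an adhesion protein of epithelia, was at 455, 389 and 430 in CAOV3 controls and 266, 268 and 281 with ascites, without overlap (-0.64, SE 0.32, limma adjusted p = 0.438), and KRT19 was at -0.06 (SE 0.04, adjusted p = 0.624). The SE of CDH1 was estimated over both lines, and in TOV21G its values were 6.3 to 17.3. The KRT8 rise was not called without any 1 of the 6 CAOV3 libraries (limma adjusted p 0.0557 to 0.102), the KRT8 interaction stayed called only without TOV21G control replicate 2 or ascites replicate 2 (0.0765 to 0.147 in the other fits), and the KRT18 call was lost without CAOV3 ascites replicate 1 (0.0501) or 3 (0.052). The fibroblast collagen COL1A2 was called lower in CAOV3 by limma at values of 0 to 3.0 in that line, and was not called by edgeR (adjusted p = 0.232) or DESeq2 (0.314). The part of these markers in the changes of the 9 genes was not tested.

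Without ascites, the 2 lines held very different amounts of the 9 transcripts. All 9 were called between the control groups, 7 higher in TOV21G and 2 lower, and none of the groups overlapped. These lines differed in most of the transcriptome, since 82.2% of all genes tested were called (40.8% higher in TOV21G and 41.4% lower) and 82.6% did not overlap. The median over the 9 genes was 1.74 on the log2 scale, against -0.019 over all genes. All 9 calls held in each of the 12 fits that left out 1 library.

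The widest gap was in HLA-B, at 168 ± 14 in CAOV3 controls and 4145 ± 419 in TOV21G controls, 4.61 higher on the log2 scale (SE 0.08, limma adjusted p = 9.91e-15), or 24.4-fold. How reads from each line's own HLA-B alleles align to the reference was not tested. PSMB9 followed, from 19.7 ± 8.7 to 464 ± 89 (4.55, SE 0.23, limma adjusted p = 4.02e-10), then NLRC5, from 86.6 ± 16.0 to 574 ± 12 (2.73, SE 0.12, adjusted p = 7.61e-11). TAP1 was 5.40-fold higher in TOV21G (2.43, SE 0.06), TAPBP 3.33-fold (1.74, SE 0.05), HLA-E 2.57-fold (1.36, SE 0.05) and HLA-C 1.51-fold (0.60, SE 0.06). Among these heavy chains the gap ran from 1.51-fold in HLA-C to 24.4-fold in HLA-B, the pair whose promoters are printed above. TAP2 was lower in TOV21G, at 381 ± 30 against 732 ± 17 in CAOV3 (-0.94, SE 0.06, limma adjusted p = 3.79e-09) as was B2M, at 7568 ± 478 against 11160 ± 207 (-0.56, SE 0.05, limma adjusted p = 6.71e-08).

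**Figure D4:**
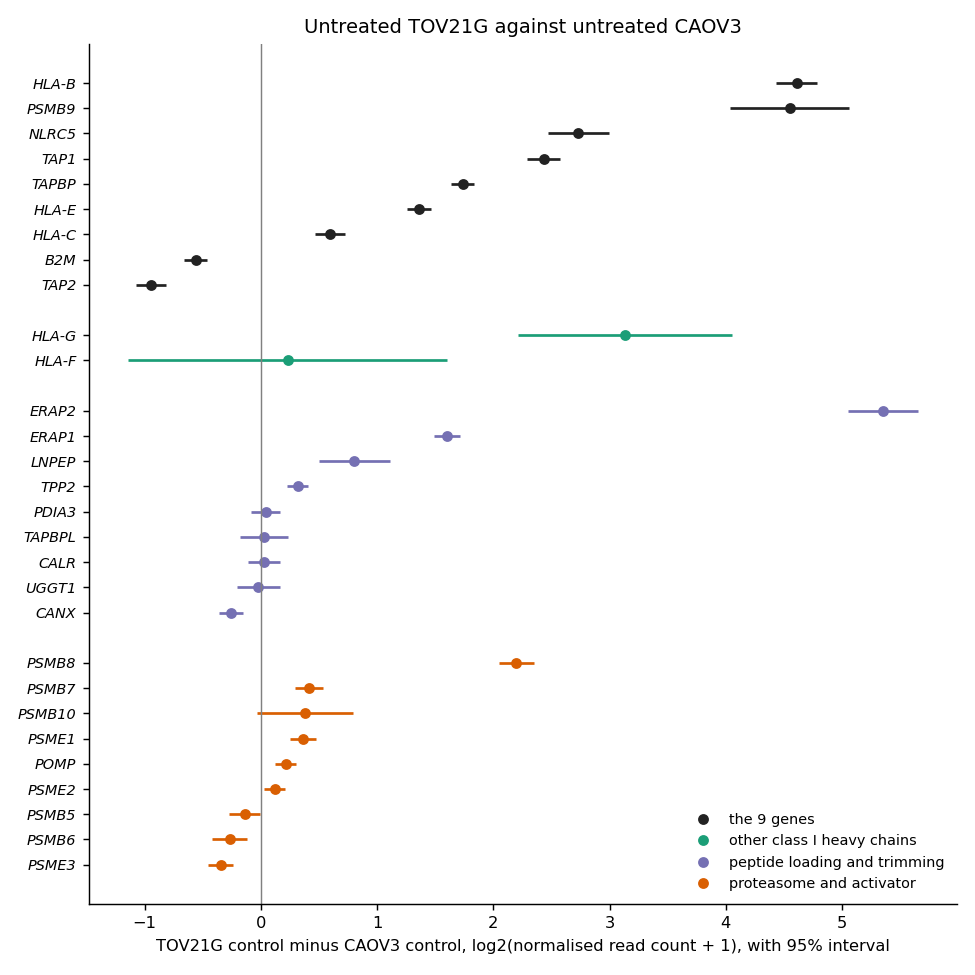
TOV21G control minus CAOV3 control on the log2(value + 1) scale (x axis) with its 95% interval, for the 9 genes and for the other heavy chains, the peptide loading and trimming genes and the proteasome genes. HLA-B (4.61) and PSMB9 (4.55) lie farthest to the right of the 9, TAP2 (-0.94) and B2M (-0.56) lie left of 0, and ERAP2 (5.35) is the farthest of all; HLA-F and HLA-G, at 15.2 or less in every library, have the widest intervals.

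Per kilobase of exon, the order of the 9 genes changed between the lines. The divisor is the union of all annotated exons of a gene, which can be longer than the transcript a cell makes. The order of the genes within a line therefore depends on it. In CAOV3 controls B2M stood first (1836 ± 34 normalised counts per kilobase), before HLA-C (1052 ± 52), TAPBP (670 ± 12), HLA-E (477 ± 12), TAP2 (115 ± 2.7), TAP1 (98.9 ± 5.7) and HLA-B (55.2 ± 4.5). NLRC5 (6.99 ± 1.3) and PSMB9 (6.43 ± 2.8) came last and overlapped, while every other neighbouring pair was separate. In TOV21G controls TAPBP stood first (2233 ± 66), before HLA-C (1589 ± 87). HLA-B (1359 ± 137), B2M (1245 ± 79) and HLA-E (1228 ± 62) followed with overlapping libraries, and then TAP1 (535 ± 36), PSMB9 (151 ± 29), TAP2 (59.6 ± 4.7) and NLRC5 (46.3 ± 0.94) without overlap. With ascites, the order of means was the same as in the controls in each line. NLRC5 (12.4 ± 1.2) and PSMB9 (8.51 ± 0.17) no longer overlapped in CAOV3, while HLA-C (1473 ± 117) and HLA-B (1321 ± 79) did in TOV21G.

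HLA-B, HLA-C and HLA-E thus made up different mixtures. HLA-B was 3.48% ± 0.20 of the summed counts per kilobase of these 3 heavy chains in CAOV3 controls and 32.5% ± 1.0 in TOV21G controls. HLA-C was 66.4% ± 1.3 and 38.1% ± 0.55, and HLA-E 30.2% ± 1.5 and 29.4% ± 0.51. HLA-B and HLA-C shares did not overlap between the lines, while those of HLA-E did. With ascites the shares of HLA-B and HLA-C were 3.52% ± 0.31 and 67.5% ± 0.47 in CAOV3 and 33.1% ± 0.74 and 36.9% ± 0.64 in TOV21G. The summed counts per kilobase of the 3 came to 86.3% ± 4.2 of those of B2M in CAOV3 controls and 90.5% ± 2.3 with ascites, and to 336% ± 19 and 322% ± 9.8 in TOV21G. The exon bases used as divisors were 6079 for B2M and 2507 to 3051 for the 3 heavy chains, so the size of these percentages depends on them. HLA-B shares exon bases and 50-base stretches with neighbours and other class I genes, so these shares depend on how the authors' counting treated such reads.

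Around the 9 genes, 42 of the 79 tested pathway genes were called higher in TOV21G controls and 24 lower, where 40.8% of all genes tested were called higher and 41.4% lower (82.2% in either direction). In peptide trimming, ERAP2, an aminopeptidase of the endoplasmic reticulum, was 40.9-fold higher (57.6 ± 4.4 against 2391 ± 102, limma adjusted p = 3.5e-13), and the calnexin gene CANX, a chaperone of new heavy chains, was lower (-0.26, limma adjusted p = 0.000258). In the proteasome list PSMB8 was the highest (2.20, SE 0.07, limma adjusted p = 2.35e-12) and PSME3, another activator subunit, the lowest (-0.35, adjusted p = 1.87e-05). Among transcription factors STAT2 had the highest difference (1.18, limma adjusted p = 1.8e-10) and ATF1, a relative of CREB, the lowest (-0.77, adjusted p = 2.09e-07). In interferon signalling 8 of the 11 genes tested were called higher and 3 lower. The kinase gene JAK2 was higher (1.35, limma adjusted p = 5.22e-09), and IRF8 was at 715 to 784 in CAOV3 controls and 0.90 to 3.1 in TOV21G controls. Another kinase gene, JAK1, was at 2468 to 2783 in CAOV3 controls and 186 to 212 in TOV21G controls. The interferon-stimulated gene MX1 was at 5.7 to 9.9 in CAOV3 controls and 258 to 319 in TOV21G controls, and GBP2 at 686 to 841 and 0 to 0.90. Of the class I-like genes MR1, which presents vitamin metabolites, was at 4.0 to 7.9 and 144 to 186, and RAET1E, a ligand of the receptor NKG2D, at 51.5 to 63.6 and 0 to 1.1. HLA-G was at 0 in all CAOV3 libraries and at 3.1 to 11.9 in TOV21G controls. Among the ligases that remove class I from the surface, MARCHF9 was higher (1.22, limma adjusted p = 1.66e-08) and MARCHF4 lower (-3.88, limma adjusted p = 5.05e-11).

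Class II genes present peptides to helper T cells. Of 11 class II genes 4 were listed, and limma called all 4 higher in TOV21G controls. Among all genes tested, 40.8% were called higher and 41.4% lower. HLA-DMB, HLA-DQB1 and CD74 passed the filter for testing only through TOV21G libraries, so the direction of their calls was fixed in advance. HLA-DMB, which helps to load class II molecules, was at 0 in all 6 CAOV3 libraries and at 2636 to 2904 in the 6 TOV21G libraries. CD74, the invariant chain, was at 0 to 3.0 in CAOV3 and 807 to 1008 in TOV21G. HLA-DMA, the partner of HLA-DMB, was at 10.2 to 17.2 in CAOV3 controls and 56.6 to 68.3 in TOV21G controls (2.16, SE 0.24, limma adjusted p = 1.6e-06), and HLA-DQB1 at 0 and 3.3 to 15.3. CIITA, the relative of NLRC5 that drives class II genes, was at 2.0 to 11.9 in all 12 libraries.

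Within TOV21G the replicates of a group lay apart along 1 axis. It carried 49.5% of the within-group variance (29.4% for the CAOV3 axis), over genes tested with a mean value of at least 50 across the 12 libraries. The scores were -16.6 for control replicate 1 and -14.4 for ascites replicate 2, and 14.9 for control replicate 2 and 11.7 for ascites replicate 3. Control replicate 1 was the highest of the 3 controls for 7 of the 9 genes and control replicate 2 the lowest for 8. Ascites replicate 2 was the highest for 7 and ascites replicate 3 the lowest for 5. NLRC5 went the other way, lowest in control replicate 1 and highest in control replicate 2. With control replicate 1 and ascites replicate 2 both left out, a choice made after seeing the data, the CAOV3 rise of TAP1 was called (limma adjusted p = 0.0331), since the spread is estimated over both lines. NLRC5 and TAP2 stayed called in CAOV3 (0.00556 and 0.00582).

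**Figure D5:**
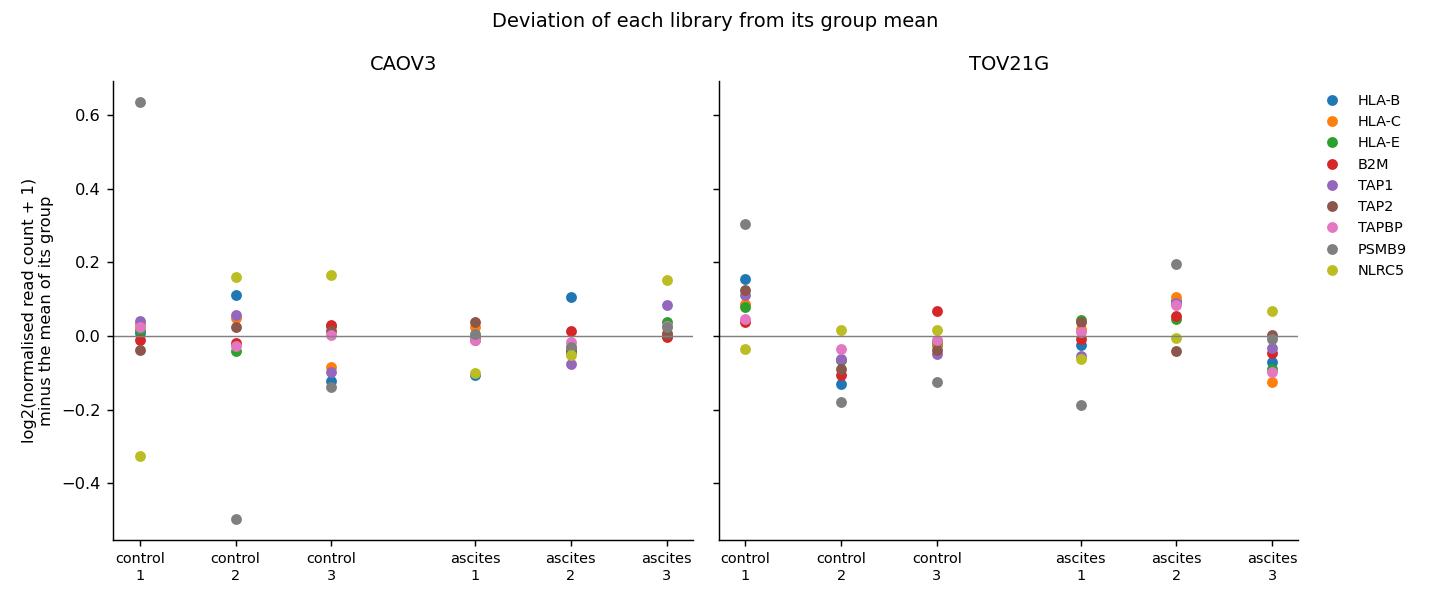
Deviation of each library from its group's mean, log2(value + 1) (y axis), for the 9 genes (colours) in the libraries of CAOV3 (left) and TOV21G (right). In TOV21G control 1 and ascites 2 most genes lie above 0 and in control 2 below it; in CAOV3 the widest points belong to PSMB9 and NLRC5, the 2 genes with the fewest reads there.

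Within each line, how far the genes moved together over the 6 libraries depended on the pair. In CAOV3 Pearson's r of log2(value + 1) ran from 0.23 between HLA-B and HLA-E, 0.24 between HLA-B and PSMB9 and 0.25 between PSMB9 and NLRC5 to 0.96 between HLA-C and TAP1, 0.96 between HLA-E and TAPBP, 0.94 between TAP2 and NLRC5 and 0.89 between B2M and NLRC5. These points share the ascites contrast and the library factors, so r is a description. In TOV21G, TAP1 and PSMB9, whose starts face away from each other, had r = 0.98, HLA-C and HLA-E 0.92, TAP2 and TAPBP 0.22 and TAP2 and HLA-C 0.14, and NLRC5 had r from -0.48 (TAP2) to 0.29 (HLA-C) with the other 8. Of 11157 genes with a mean of at least 50 in both lines, those most like NLRC5 over the 12 libraries, after the mean of each line was removed, were JAK3 (r = 0.952), BDNF (0.947) and NNMT (0.926). Those most like B2M were SINHCAF (0.941), NUDT21 (0.938) and EIF1AX (0.93). For TAP1 they were TRIP6 (0.932), SBNO2 (0.931) and SLC1A5 (0.92), and for HLA-E MRM2 (0.953), NECTIN1 (0.952) and HSPA8 (0.939). Treatment means were not removed, so these r also hold the ascites contrast. NNMT was at 27.2 to 51.6 in CAOV3 controls and 461 to 570 with ascites. It reached the mean of 50 in CAOV3 only through the ascites libraries.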

How the data were processed

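RNA was sequenced in 12 libraries, 3 for each of 4 groups (CAOV3 and TOV21G, each as control and with ascites). The authors deposited 1 signal per gene and library, a normalised read count. The submitters' processing notes name Trim Galore, cutadapt, STAR, HTSeq and DESeq, with no versions or roles, and build, annotation and strandedness are not given in the sources used here. In all 12 libraries 100% of the deposited signal values were whole multiples of 1 step (tolerance 0.01 reads), so reads were recovered by division, and totalled 26697609 to 34491304 per library. No 2 replicates agreed within sampling noise (chi-square per degree of freedom 1.81 to 22.6, genes below 20 reads in a pair left out).

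Gene symbols came from a name table for 19087 identifiers and from GENCODE release 29 for 136, and 28 stayed without one. Differences were tested with limma 3.58.1 in R 4.3.3 (trend in the variance prior) on log2(value + 1), a pseudocount of 1 that understates changes of low genes. A single model with 4 group means held all 12 libraries, for genes with a value of at least 10 in at least 3 libraries. P-values are two-sided and Benjamini-Hochberg adjusted within each contrast over 17616 genes. Scripts were tested on simulated data.

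The members and lists were chosen with earlier results of these data known. All 9 genes are named. From the other lists every gene called in an ascites contrast or in the interaction is named, and for the control comparison the called gene with the highest and with the lowest difference in each pathway list. Other genes were named after their values were seen. A gene of the pathway is not reported here. Counts per kilobase used the union of GENCODE exons over all transcripts of a gene, so comparisons between genes depend on that length. The alternatives were pseudocounts of 0.5 and 5, no filter, TMM scaling, each line or the controls fitted alone, a replicate block, edgeR 4.0.16 (quasi-likelihood) and DESeq2 1.42.0 on the recovered reads, each library left out in turn and, added after seeing the data, 2 TOV21G libraries left out together.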

Additional observations from a re-analysis of the deposited data

Results flagged for a closer look

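The response of NLRC5 to ascites differed between the lines. The limma interaction (TOV21G minus CAOV3) was -1.028 on the log2 scale, with an adjusted p of 0.0177. In CAOV3 the 3 ascites libraries (142 to 170) lay above the 3 controls (68.1 to 96.0), and in TOV21G the 3 ascites libraries (478 to 523) lay below the 3 controls (560 to 581). Leaving out CAOV3 ascites replicate 3, TOV21G control replicate 3 or TOV21G ascites replicate 1 took the limma adjusted p to 0.0601, 0.064 and 0.0675. No group had enough libraries for a test of outlying values.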

How the results depend on the processing

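The 9 genes kept the direction and call of the control comparison in all 21 alternatives. Among the 9, CAOV3 calls numbered 1 with each line fitted alone (TAP2) and 1 to 2 with 1 library left out, and interaction calls 0 to 1. Pathway calls in CAOV3 numbered 2 to 4 with 1 library left out, in TOV21G 0 to 1, and interactions 0 to 2 (2 by DESeq2, 1 with both TOV21G libraries left out). Over all genes, CAOV3 calls numbered 305, against 511 by edgeR, 507 by DESeq2, 614 with both TOV21G libraries left out and 172 to 344 with 1 left out. TOV21G calls numbered 72, against 114 by edgeR, 151 by DESeq2, 8 with TOV21G fitted alone and 24 to 136 with 1 library left out, from 24 without TOV21G control replicate 3 to 136 without TOV21G ascites replicate 2. Interaction calls numbered 96, against 148 by edgeR, 210 by DESeq2, 178 with both left out and 40 to 146. The share of TOV21G calls that were higher was 34.7%, and 44.7% by edgeR. Estimates of either sign in TOV21G were those of HLA-B (-0.103 to 0.04 with 1 library left out), HLA-E (-0.076 to 0.002), B2M (-0.06 to 0.027, 0.017 with TMM and 0.017 by edgeR), TAP1 (-0.003 to 0.096) and TAPBP (-0.051 to 0.04, 0.016 with TMM and 0.018 by edgeR). The causes were not tested.

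Deviations of same-numbered control and ascites libraries from their group means correlated at -0.053, 0.046 and 0.02 in CAOV3 and -0.138, -0.426 and 0.031 in TOV21G. Not every library correlated best with its own number. With 3 libraries a group, and with 1 wide axis in TOV21G, these correlations cannot settle whether the replicate numbers pair the samples. With a replicate block, calls numbered 116 in CAOV3, 13 in TOV21G and 9 for the interaction over all genes. The block left 1 call among the 9 in CAOV3 (NLRC5, limma adjusted p = 0.0116, with TAP2 at 0.116) and 0 for the interaction (NLRC5 0.0827), and 1 pathway call in CAOV3 (IRF1, 0.0301).

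Depth limits the genes with few reads: PSMB9 rests on 12 to 26 reads a CAOV3 library and NLRC5 on 60 to 166. In these the spread is shared with TOV21G, where counts are higher, and fitted alone the CAOV3 rise of NLRC5 had a limma adjusted p of 0.0814.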
